A study of Mus musculus with 71 samples.

Results

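The AP-1 Fos and Jun family is described here across the 12 groups of an experiment on diet and memory in mouse hippocampus. Its members were chosen by name and not by a cut on their values, though with earlier results of these data known. They were the 4 Fos genes (Fos, Fosb, Fosl1 and Fosl2), the 3 Jun genes (Jun, Junb and Jund) and the related gene Atf3, which makes 8 of the 57010 genes in the count table. All 8 were among the 30141 genes whose counts summed to at least 10 over the mice, so that none was lost to the filter on low counts. The mice were wild-type C57BL/6J males. From 3 weeks of age they ate for 12 weeks either a normal chow with 8% of lipids (the chow-fed mice, NC ad lib) or a high-fat high-sugar diet with 45% of lipids, given without restriction (HFS ad lib) or, over the last 4 weeks, only from zeitgeber time zt11 to zt1 (HFS TRF). In a first experiment of 36 mice, animals of each diet were killed from the home cage at zt3 (HC zt3) or 1 h after a 10 min object recognition training (ORM+1 h). In a second experiment of 35 mice they were killed from the home cage at zt15 (HC zt15) or 12 h after the same training (ORM+12 h). Each group held 6 mice, except for HFS TRF at HC zt15 with 5. In each mouse, hippocampal mRNA was recovered by pS6-TRAP, the immunoprecipitation of ribosomes that carry phosphorylated ribosomal protein S6, and sequenced. The antibody selects ribosomes by this phosphorylation and not by cell type.

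AP-1 is a dimer of basic leucine zipper (bZIP) proteins that binds DNA and regulates transcription. A Fos protein pairs with a Jun protein, whereas Jun proteins can also pair with each other and with members of the ATF group. In hippocampal neurons, synaptic activity signals through calcium, CREB and serum response factor to switch on Fos, Fosb and Junb within minutes, and their mRNAs are used as marks of recent neuronal activity. Jund is present at rest in most cells, and truncated FosB, made from alternatively spliced Fosb mRNA, is known for its long persistence after repeated stimulation. Gene counts cannot tell the Fosb splice forms apart.

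Coordinates are those of GRCm39, the genome to which the reads were aligned. Fos lies on chromosome 12 (85520658 to 85524047, plus strand), Fosb on chromosome 7 (19036621 to 19043976, minus strand), Fosl1 on chromosome 19 (5497575 to 5505974, plus strand) and Fosl2 on chromosome 5 (32292707 to 32315186, plus strand). Jun lies on chromosome 4 (94937271 to 94940459, minus strand), and Junb (85701113 to 85705359, minus strand) and Jund (71151599 to 71153265, plus strand) lie both on chromosome 8. Atf3 lies on chromosome 1 (190902493 to 190950241, minus strand). Counted genes on the opposite strand overlap the exons of 4 members. Ccdc85b covers 57.2% of the exonic bases of Fosl1, Gm11175 covers 52.6% of those of Jund, Junos covers 16.6% of those of Jun and Prdx2 covers 7.27% of those of Junb. The strand setting of the counting is not given in the sources used here, so reads from these overlaps cannot be assigned with certainty, and Fosl1, the member with the fewest reads, is the most uncertain.

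The promoters of Fos, Fosb and Junb are shown because the results turn on these genes, and that of Jun for comparison. The sequences are the 250 bases before the transcription start in the RefSeq table of build GRCm38.p6, placed on GRCm39 by an exact match, 5′ to 3′ on the strand of the gene. They span chr12:85520414-85520663 (plus) for Fos, chr7:19043971-19044220 (minus) for Fosb, chr8:85705378-85705627 (minus) for Junb and chr4:94940460-94940709 (minus) for Jun. Capitals mark TGACG, the core of the cAMP response element that CREB binds, TATAAA, the letters of the TATA box, and TGACATCA, a variant AP-1 site known from the Jun promoter.
Fos: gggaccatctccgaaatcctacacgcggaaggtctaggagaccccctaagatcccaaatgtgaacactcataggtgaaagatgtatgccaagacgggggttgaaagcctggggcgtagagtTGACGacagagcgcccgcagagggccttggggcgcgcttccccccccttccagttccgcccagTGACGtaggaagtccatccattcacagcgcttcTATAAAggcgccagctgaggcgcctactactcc
Fosb: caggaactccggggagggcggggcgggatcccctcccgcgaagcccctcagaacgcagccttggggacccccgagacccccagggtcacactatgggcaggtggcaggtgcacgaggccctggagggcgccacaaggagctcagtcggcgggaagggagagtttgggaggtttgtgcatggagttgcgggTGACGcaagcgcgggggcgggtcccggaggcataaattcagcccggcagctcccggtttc
Junb: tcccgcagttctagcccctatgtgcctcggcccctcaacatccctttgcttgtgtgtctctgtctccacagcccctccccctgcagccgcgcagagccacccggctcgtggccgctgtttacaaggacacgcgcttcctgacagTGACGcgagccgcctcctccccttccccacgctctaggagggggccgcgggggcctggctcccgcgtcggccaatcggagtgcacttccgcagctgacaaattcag
Jun: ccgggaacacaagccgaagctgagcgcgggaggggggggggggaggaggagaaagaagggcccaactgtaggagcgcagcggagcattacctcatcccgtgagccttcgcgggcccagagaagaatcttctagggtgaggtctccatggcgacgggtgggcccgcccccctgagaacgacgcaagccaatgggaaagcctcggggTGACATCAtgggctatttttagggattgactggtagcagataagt
The CREB core stood at positions -129 and -66 in Fos, at -60 in Fosb and at -106 in Junb, where -1 is the base before the start. Of the 4 printed promoters, Fos held the TATA box, beginning at -33, and Jun held the variant site beginning at -45. On either strand, the CREB core was present in 17.8% of the 32851 promoter windows of this length, the variant site in 2.93% and, on the strand of the gene, the TATA box in 7.59%. The whole element TGACGTCA, which contains the core (1.55% of windows), the AP-1 site TGANTCA (6.75%) and the CArG box of serum response factor (1.47%) had no match in the windows of the 7 members in the table. Atf3 held the core at -7 on the other strand, and Fosl2 and Jund held none of these motifs. Their windows are not printed, since the RefSeq start of Atf3 lies 34711 bases and that of Fosl2 1109 bases inside the GENCODE gene, and that of Jund lies upstream of it. These matches describe letters in a window and not bound sites, and sequence beyond the 250 bases was not searched for any motif.

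Total counts per mouse ranged from 34698914 to 62758570. Markers of excitatory neurons were abundant, with a median of 1338 CPM (counts scaled to library size by TMM) for the glutamate transporter gene Slc17a7 and 4823 CPM for the kinase gene Camk2a. Astrocyte markers moved with several comparisons. Summed over 8 astrocyte markers, chow-fed mice had 1303 to 1827 CPM at HC zt3 and 2992 to 4903 CPM at ORM+1 h, HFS ad lib mice 1071 to 3595 and 1919 to 4405 CPM, and HFS TRF mice 979 to 2437 and 2190 to 4019 CPM. As the mean of the 3 diets, 8 of 8 astrocyte markers rose at ORM+1 h (median log2 fold change 0.95) and at HC zt15 against HC zt3 (0.98), whereas 1 fell at ORM+12 h (median -0.40). At ORM+1 h, 2 of 8 excitatory neuron markers fell and 1 of 6 interneuron markers rose, and none of the markers of myelinating oligodendrocytes, their precursors, microglia, endothelium or choroid plexus passed the test, beside 8.04% of all genes higher and 6.59% lower. Summed choroid plexus markers ran from 97.5 to 18804 CPM between mice, and HFS ad lib HC zt15 replicate 2 had 472.1 CPM of microglia markers against a median of 74.6 in its group. None of the 8 astrocyte markers was at 0. The series holds no libraries of input RNA, so all levels are those of mRNA recovered with pS6. A change in the number of cells, in mRNA per cell and in the ribosomes recovered cannot be told apart.

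At rest, Jund was the most abundant member when levels were set per length, as CPM per kilobase of exon. The length was that of all annotated exons of a gene merged, not of the transcripts expressed. The orders, shares and ratios per length rest on this choice. In CPM alone, Jun (159.7 to 219.5) overlapped Jund (187.7 to 205.4) in chow-fed mice at HC zt3. At HC zt3 in chow-fed mice, Jund, the Jun gene known for its constitutive expression, had 116.5 ± 4.22 CPM per kb (SD, n = 6). Junb followed with 59.2 ± 8.88 and Jun with 57.8 ± 7.56 CPM per kb, and the ranges of these neighbours overlapped while neither reached Jund. The Fos genes were lower, with 7.77 ± 1.5 CPM per kb for Fosl2, 5.89 ± 2.16 for Fos and 3.83 ± 0.91 for Fosb, and each overlapped the next in this order. Atf3, a stress-induced bZIP gene, had 1.58 ± 0.42 CPM per kb and Fosl1 0.123 ± 0.056 CPM per kb, and neither overlapped its neighbour above. On both high-fat diets Jund was again first at HC zt3, and Jun and Junb overlapped behind it.

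At ORM+1 h the order of the levels per length was another. Junb came first on each diet, with 175.5 ± 13.4 CPM per kb in chow-fed mice, 149.2 ± 29.2 under HFS ad lib and 153.9 ± 30.4 under HFS TRF (SD, n = 6 each), and overlapped Jund, the next in order. Fos, next below Jun in chow-fed mice, had 38.4 ± 4.53 CPM per kb, above Fosb with 23.7 ± 5.22 and Fosl2 with 20.4 ± 3.01, and these neighbours overlapped. The plot of levels per length shows these 2 orders side by side.

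**Figure D1:**
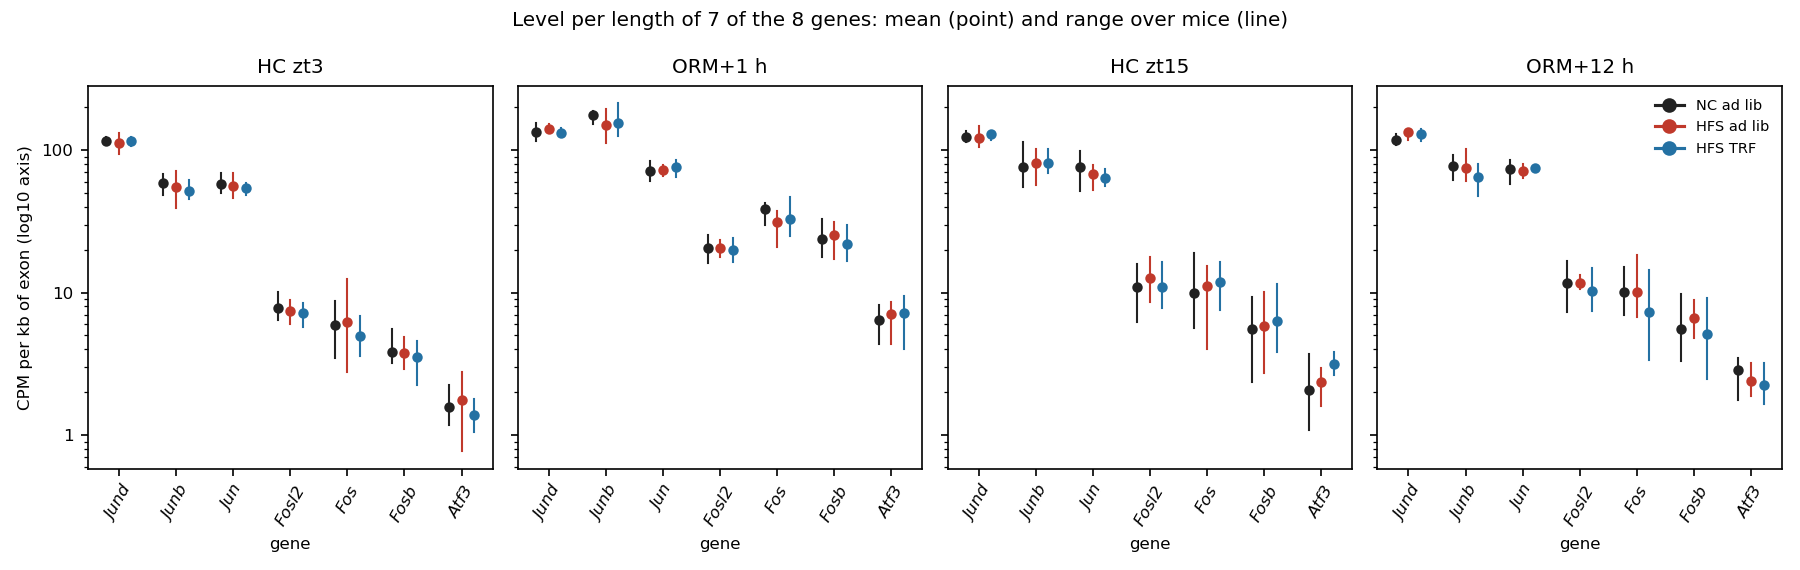
Level per length of 7 of the 8 genes, without Fosl1 (CPM per kb of exon, log axis), in the 4 conditions of each diet, with a point for the mean of each group and a line for the range over its mice. Jund led at HC zt3, and Junb came first at ORM+1 h with a range that overlapped that of Jund.

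Most members had higher mRNA 1 h after training on each diet. Against HC zt3 and by the quasi-likelihood test of edgeR, adjusted over all genes tested by Benjamini and Hochberg's method, 6 of 8 members rose in chow-fed mice, where 4.03% of the tested genes rose and 1.7% fell, 7 of 8 under HFS ad lib (0.74% rose and 0.491% fell) and 6 of 8 under HFS TRF (2.24% and 0.624%). As the mean of the 3 diets all 8 rose, beside 8.04% of genes that rose and 6.59% that fell, and no member fell on any diet. The median log2 fold change of the 8 members as the mean of the 3 diets was 1.53, and that of all genes tested was 0.00. Members whose trained and home cage mice did not overlap numbered 5 in the chow-fed (3.19% of genes), 7 in the HFS ad lib (0.819%) and 7 in the HFS TRF group (2.14%). Fos, Fosb, Fosl2, Junb and Atf3 were in each of these sets. The HFS ad lib set also held Fosl1, whose groups stood apart only narrowly, at 0.346 against 0.351 CPM.

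Fos, the prototype of the immediate early genes, was low in most home cage mice. Chow-fed mice had from 8.13 to 20.6 CPM of Fos at HC zt3 (median 13.7) and from 70.7 to 100.7 CPM at ORM+1 h (median 94.0). Under HFS ad lib these were from 6.56 to 29.4 CPM (median 9.94) and from 48.9 to 87.8 CPM (median 78.8). HFS TRF mice had from 8.41 to 16.2 CPM (median 10.9) and from 58.8 to 110.9 CPM (median 68.6). Every trained mouse was above every home cage mouse of its diet, and the widest relative spread at rest was under HFS ad lib, with a coefficient of variation of 68.6%. The log2 fold change of Fos was 2.70 ± 0.31 in chow-fed mice (SE, adjusted p = 2.14e-08), 2.32 ± 0.31 under HFS ad lib (adjusted p = 1.75e-06) and 2.73 ± 0.31 under HFS TRF (adjusted p = 1.74e-08).

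Fosb, which encodes FosB and its truncated form, also rose on each diet. Its lowest, median and highest levels in chow-fed mice were 19.99, 21.5 and 34.8 CPM at HC zt3 and 111.0, 143.2 and 205.9 CPM at ORM+1 h. In HFS ad lib mice they were 18.1, 23.1 and 30.3 CPM at rest and 106.6, 164.1 and 195.9 CPM after training. In HFS TRF mice they were 13.9, 23.3 and 28.5 CPM at rest and 104.4, 134.0 and 184.8 CPM after training. The groups stood apart on each diet, and the lowest trained mouse of any diet was above the highest home cage mouse of any diet. The log2 fold change was 2.63 ± 0.27 in chow-fed mice (SE, adjusted p = 9.67e-10), 2.74 ± 0.27 under HFS ad lib (adjusted p = 4.53e-10) and 2.64 ± 0.27 under HFS TRF (adjusted p = 6.99e-10).

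Fosl2, which encodes the Fos-related antigen Fra-2, was well counted at rest. At HC zt3 it ranged from 67.3 to 105.8 CPM in chow-fed mice (median 73.8), from 62.7 to 92.6 CPM under HFS ad lib (median 75.5) and from 59.6 to 87.7 CPM under HFS TRF (median 77.4). At ORM+1 h it ranged from 168.0 to 262.3 CPM (median 209.7), from 183.5 to 244.4 CPM (median 217.7) and from 170.9 to 249.4 CPM (median 207.2). No ORM+1 h mouse overlapped an HC zt3 mouse. Fosl2 rose on the log2 scale by 1.39 ± 0.18 in chow-fed mice, 1.47 ± 0.18 under HFS ad lib and 1.48 ± 0.18 under HFS TRF, a smaller change than that of Fos or Fosb in each diet by its point estimate; the differences between genes were not tested.

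Fosl1, which encodes Fra-1, was near the limit of detection, with 2 to 20 counts per mouse at HC zt3 and 10 to 70 counts at ORM+1 h. Its median was 0.303, 0.113 and 0.193 CPM at HC zt3 in the chow-fed, the HFS ad lib and the HFS TRF group, and 0.381, 0.710 and 0.544 CPM at ORM+1 h. Trained and home cage mice overlapped in chow-fed mice, stood narrowly apart under HFS ad lib, and overlapped by 1 trained mouse under HFS TRF. Under HFS ad lib the highest home cage level was 0.346 CPM and the lowest trained level 0.351 CPM. The highest home cage count and the lowest trained count there were both 20. The difference passed the test on no single diet, with a log2 fold change of 0.71 in chow-fed mice (95% interval -0.63 to 2.04), 2.29 under HFS ad lib (0.93 to 3.64, adjusted p = 0.0833) and 1.61 under HFS TRF (0.26 to 2.96, adjusted p = 0.246). Under HFS ad lib Fosl1 passed without HC zt3 replicate 5, at 2.77. It passed as the mean of the 3 diets, at 1.53 ± 0.39 (SE, adjusted p = 0.00304). Ccdc85b, the abundant gene on the other strand of Fosl1, had a log2 fold change of 0.00 in the same comparison.

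**Figure D2:**
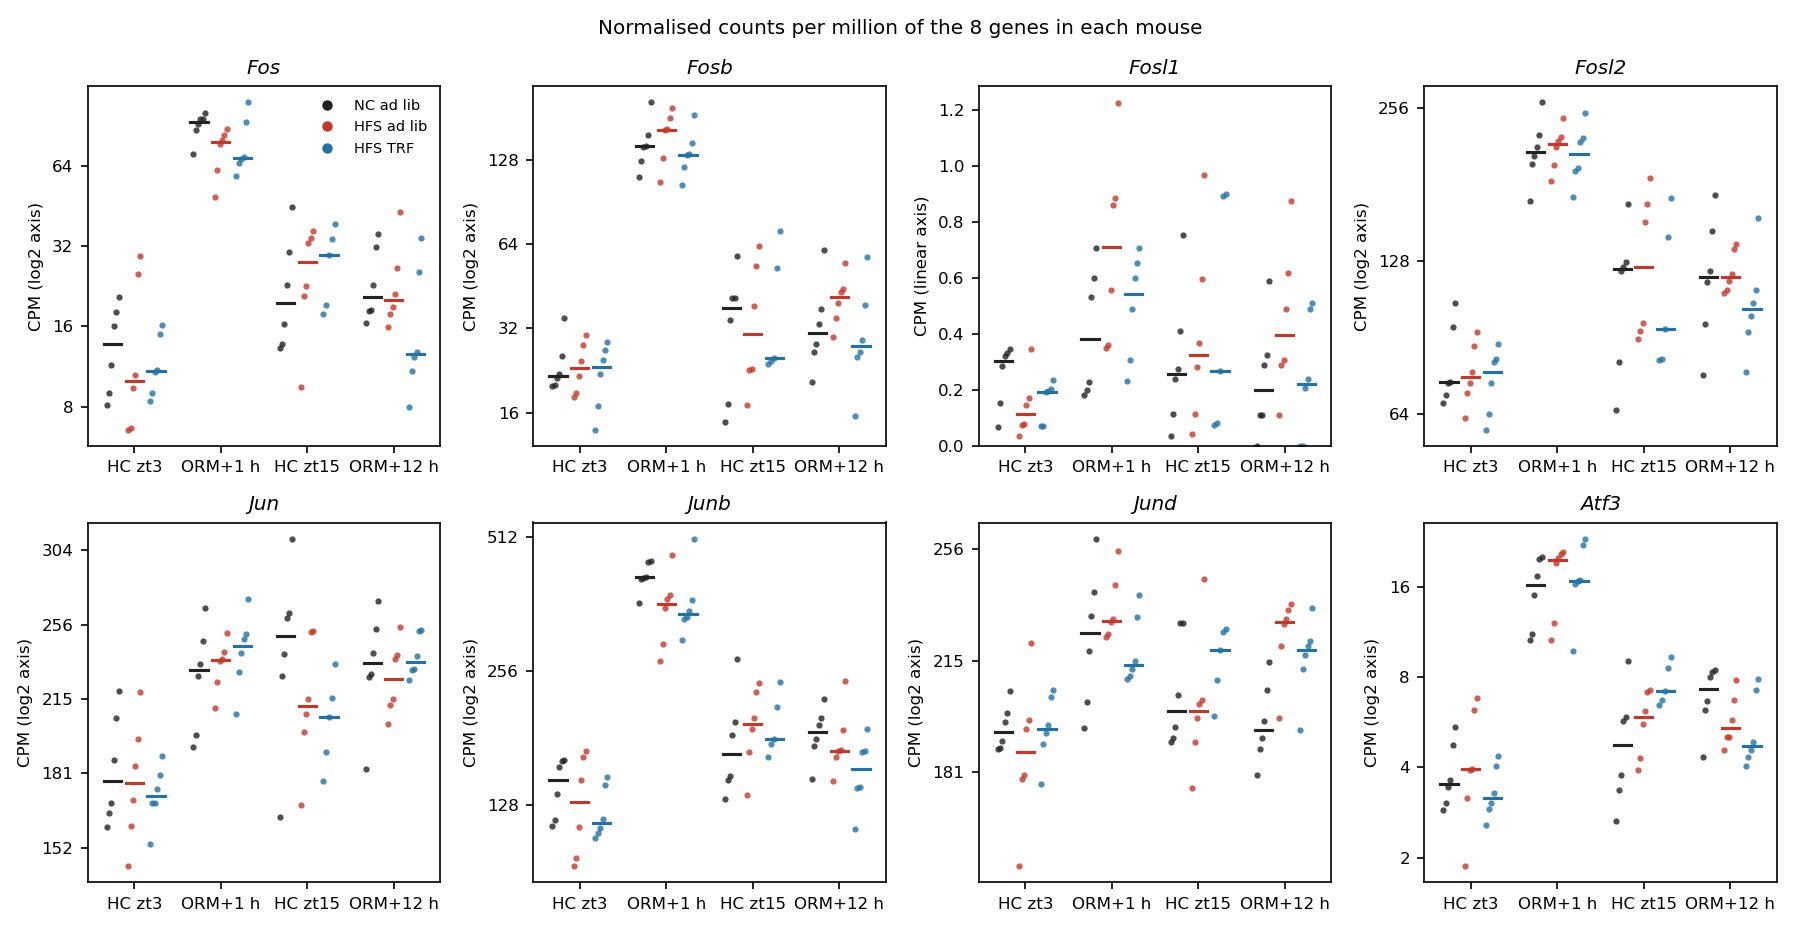
Level of each of the 8 genes in every mouse (CPM, on a log axis but for Fosl1, which has a linear one) by condition and diet, with a line at the median of each group. Fos, Fosb, Fosl2, Junb and Atf3 of all ORM+1 h mice lie above the HC zt3 mice of the same diet, whereas HC zt15 and ORM+12 h mice overlap.

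Among the Jun genes, Junb rose most. Chow-fed mice had from 114.7 to 161.4 CPM of Junb at HC zt3 (median 145.4) and from 363.9 to 450.7 CPM at ORM+1 h (median 415.1). Under HFS ad lib it ranged from 93.2 to 168.6 CPM (median 129.6) and from 269.1 to 465.3 CPM (median 361.9). HFS TRF mice had from 107.8 to 147.7 CPM (median 116.3) and from 300.5 to 506.6 CPM (median 343.7). All ORM+1 h mice were above all HC zt3 mice. Junb rose on the log2 scale by 1.57 ± 0.15 in chow-fed mice (SE, adjusted p = 1.4e-11), 1.45 ± 0.15 under HFS ad lib (adjusted p = 2.46e-10) and 1.57 ± 0.15 under HFS TRF (adjusted p = 1.38e-11), and on each diet its adjusted p was the smallest of the 8 members.

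Jun, whose protein c-Jun can bind DNA as a dimer with itself, changed by less. At HC zt3 it ranged from 159.7 to 219.5 CPM in chow-fed mice (median 178.0), from 145.9 to 218.9 CPM under HFS ad lib (median 177.2) and from 153.7 to 188.7 CPM under HFS TRF (median 172.0). After training it ranged from 192.6 to 266.0 CPM (median 230.3), from 210.7 to 250.9 CPM (median 235.9) and from 207.8 to 271.6 CPM (median 243.6). The groups overlapped in chow-fed mice and HFS ad lib mice and stood apart under HFS TRF. Jun rose by 0.38 ± 0.10 under HFS ad lib (SE, log2, adjusted p = 0.029) and 0.48 ± 0.10 under HFS TRF (adjusted p = 0.00123), and its difference of 0.30 in chow-fed mice missed the threshold (95% interval 0.11 to 0.50, adjusted p = 0.0523). The HFS ad lib call was lost without HC zt3 replicate 1, 2 or 4 or ORM+1 h replicate 2, 4 or 6, at 0.33 to 0.37, and the NC ad lib difference passed without HC zt3 replicate 1 or 2 or ORM+1 h replicate 3, at 0.34 to 0.36.

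Jund had the smallest relative spread of the members at HC zt3 on each diet, with a coefficient of variation of 3.62% in chow-fed mice. It ranged from 187.7 to 205.4 CPM in chow-fed mice (median 192.7), from 156.4 to 221.4 CPM under HFS ad lib (median 186.9) and from 177.7 to 205.8 CPM under HFS TRF (median 193.6) at HC zt3. Soon after training it ranged from 194.0 to 260.2 CPM (median 224.6), from 223.4 to 255.2 CPM (median 229.1) and from 209.4 to 238.4 CPM (median 213.9). The groups overlapped in chow-fed mice and stood apart on both high-fat diets. Jund rose by 0.21 ± 0.07 in chow-fed mice (SE, log2, adjusted p = 0.0413) and 0.32 ± 0.07 under HFS ad lib (adjusted p = 0.00282), and differed by 0.18 under HFS TRF without passing the test (95% interval 0.05 to 0.31, adjusted p = 0.146). The NC ad lib call was lost when any 1 of 10 of its 12 mice was left out, at 0.16 to 0.21, and it held without HC zt3 replicate 6 or ORM+1 h replicate 2.

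Atf3, a partner of Jun proteins that is induced by stress and by activity, rose on each diet. In chow-fed mice its lowest, median and highest levels were 2.89, 3.53 and 5.45 CPM at HC zt3 and 10.6, 16.1 and 20.1 CPM at ORM+1 h. In HFS ad lib mice they were 1.87, 3.94 and 6.78 CPM at rest and 10.6, 19.5 and 20.8 CPM after training. In HFS TRF mice they were 2.56, 3.16 and 4.36 CPM at rest and 9.76, 16.8 and 23.1 CPM after training. No group overlapped its control. The log2 fold change of Atf3 was 2.02 ± 0.23 in chow-fed mice (SE, adjusted p = 1.26e-08), 1.99 ± 0.23 under HFS ad lib (adjusted p = 2.96e-08) and 2.37 ± 0.24 under HFS TRF (adjusted p = 1.02e-10).

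**Figure D3:**
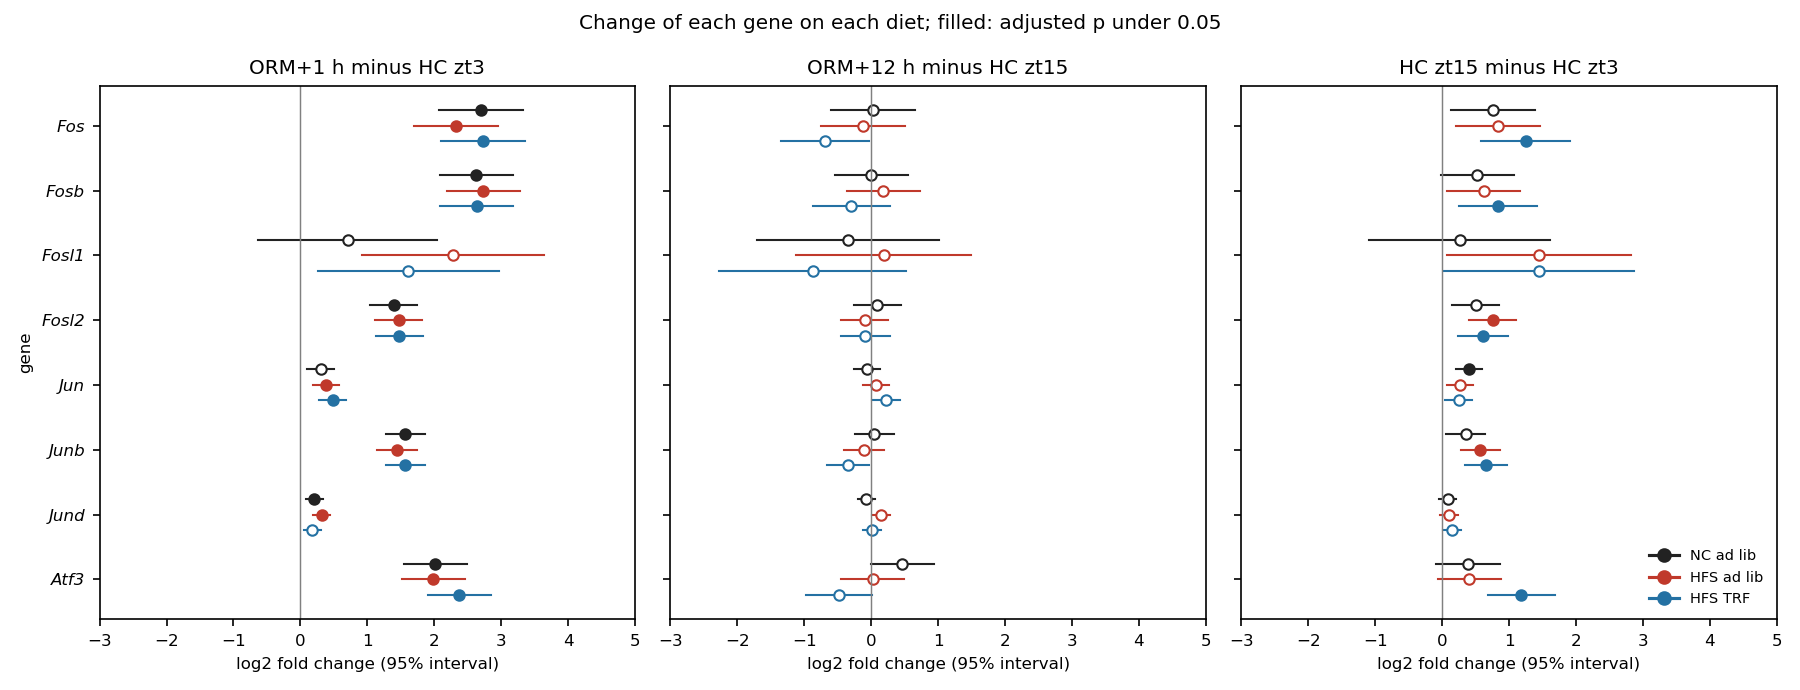
Log2 fold change of each of the 8 genes with its 95% interval, by diet, for ORM+1 h against HC zt3, ORM+12 h against HC zt15 and HC zt15 against HC zt3, with filled points for an adjusted p under 0.05. At ORM+1 h Fos and Fosb lie between 2.32 and 2.74 and Jun and Jund between 0.18 and 0.48, whereas no gene passed the test at ORM+12 h.

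With unequal changes, the make-up of the family mRNA after training was another than at rest. In chow-fed mice, Jund held 46.3% ± 3.77 of the summed CPM per kb of the 8 genes at HC zt3 and 28.6% ± 1.61 at ORM+1 h (SD, n = 6). Junb held 23.3% ± 2.16 and 37.4% ± 1.21, Jun 22.8% ± 2.00 and 15.1% ± 0.98, and Fos 2.30% ± 0.71 and 8.17% ± 0.68. The share of Jund and that of Jun were thus lower although neither mRNA fell. The Fos genes summed came to 0.0749 ± 0.0149 of the summed Jun genes at HC zt3 and 0.216 ± 0.018 at ORM+1 h in chow-fed mice, to 0.0772 ± 0.0201 and 0.213 ± 0.0246 under HFS ad lib, and to 0.0712 ± 0.00683 and 0.207 ± 0.025 under HFS TRF. The ratio did not overlap between rest and training on any diet, with a highest value of 0.109 at HC zt3 and a lowest of 0.179 at ORM+1 h. Jun mRNA remained in excess of Fos mRNA by this measure in every group.

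The astrocyte markers given above moved with these results. In a fit with the astrocyte marker score of each mouse as a covariate, added after the data were seen, all 8 members were again higher at ORM+1 h as the mean of the 3 diets, beside 3.5% of all genes higher and 2.54% lower in that fit. The log2 fold changes in that fit were 2.18 for Fos, 2.97 for Fosb, 1.65 for Fosl1, 1.65 for Fosl2, 0.35 for Jun, 1.30 for Junb, 0.24 for Jund and 2.03 for Atf3. Within the 12 groups, deviations of Fos (r = 0.336) and Junb (r = 0.376) from their group means went with the score over 71 mice and those of Fosb (r = -0.262) and Fosl2 (r = -0.275) went against it. Deviations of Jun went against the choroid plexus score (r = -0.391), and with that score as a covariate Jun rose at ORM+1 h on each diet, by 0.33, 0.38 and 0.45 in chow-fed, HFS ad lib and HFS TRF mice. On single diets and with the astrocyte score as the covariate, Jund in chow-fed mice (adjusted p = 0.167) and Jun under HFS ad lib (adjusted p = 0.0671) were not called. Astrocyte markers were themselves higher at ORM+1 h, so the fit with their score cannot tell their change apart from training. The part of astrocytes in these changes was not tested.

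At 12 h after training no member passed the same test against HC zt15, on any diet or as the mean of the 3 diets. The background was 0.143% of genes higher and 0.0664% lower in chow-fed mice, 0.0697% and 0.109% under HFS ad lib, 1.57% and 0.889% under HFS TRF, and 3.58% and 2.44% as the mean of the 3 diets. At an unadjusted p under 0.05 edgeR had 0 members in chow-fed mice, 1 under HFS ad lib, 3 under HFS TRF and 0 as the mean. Of the 30141 genes tested, 5050, 5129, 6477 and 6166 had such a p, in the same order. DESeq2 had 0, 1, 2 and 0 members at an unadjusted p under 0.05 and called 0 members in each after adjustment. Fos ranged from 13.3 to 44.7 CPM at HC zt15 and from 16.4 to 35.4 CPM at ORM+12 h in chow-fed mice, from 9.44 to 36.4 and from 15.9 to 43.0 CPM under HFS ad lib, and from 17.9 to 38.7 and from 7.95 to 34.2 CPM under HFS TRF. These ranges overlapped, as did those of every other member, where 0.259% of genes stood higher and 0.182% lower without overlap in chow-fed mice, 0.119% and 0.133% under HFS ad lib, and 1.18% and 0.756% under HFS TRF.

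The intervals say how large a remaining difference could be. As the mean of the 3 diets the log2 fold change at ORM+12 h was -0.26 for Fos (95% interval -0.63 to 0.10), -0.04 for Fosb (-0.36 to 0.28), -0.03 for Fosl2 (-0.24 to 0.18) and -0.14 for Junb (-0.31 to 0.04). It was 0.07 for Jun (-0.04 to 0.19), 0.03 for Jund (-0.05 to 0.10), 0.00 for Atf3 (-0.27 to 0.28) and -0.35 for Fosl1 (-1.13 to 0.44). Fosb, whose truncated protein is known to accumulate, had 37.8 and 30.7 CPM in chow-fed mice, 30.6 and 41.3 CPM under HFS ad lib, and 25.1 and 27.7 CPM under HFS TRF (medians at HC zt15 and ORM+12 h). In HFS TRF mice the values with an unadjusted p under 0.05 were -0.69 for Fos (95% interval -1.35 to -0.03), -0.35 for Junb (-0.66 to -0.04) and 0.22 for Jun (0.01 to 0.42).

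The change at ORM+12 h was smaller than that at ORM+1 h for most members, as tested in the same model. The difference of the changes passed the test for 6 members in chow-fed mice (4.73% of genes lower), 5 under HFS ad lib (0.62%) and 5 under HFS TRF (2.69%). Fos, Fosb, Fosl2, Junb and Atf3 passed on each diet, and Jund passed in chow-fed mice, where its call was lost when any 1 of 17 of the 24 mice was left out. The HC zt15 mice here were of the second experiment, so the hour after training cannot be told apart from time of day or from the experiment.

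Without training, family mRNA was higher at HC zt15 than at HC zt3, which are the early dark and early light phases. In these data zt15 and zt3 also belong to separate experiments, so that the hour of killing and the experiment cannot be told apart, and both home cage groups serve as controls of the training comparisons. As the mean of the 3 diets all 8 members were higher, beside 12.7% of genes that were higher and 16.9% that were lower. On single diets 1 member was higher in chow-fed mice (5.18% of genes higher, 6.54% lower), 2 under HFS ad lib (3.88% and 6.54%) and 5 under HFS TRF (5.95% and 8.26%), and none was lower. As the mean of the 3 diets the log2 fold changes were 0.95 ± 0.19 for Fos (SE, adjusted p = 3.47e-05), 0.66 ± 0.16 for Fosb, 1.05 ± 0.40 for Fosl1, 0.62 ± 0.10 for Fosl2, 0.31 ± 0.06 for Jun, 0.53 ± 0.09 for Junb, 0.11 ± 0.04 for Jund and 0.66 ± 0.14 for Atf3. Fosl1 lost its call when any 1 of 12 of the 35 mice was left out, at 0.88 to 1.02.

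Jun was the member called in chow-fed mice, with 163.6 to 312.6 CPM at HC zt15 (median 249.4) and a log2 fold change of 0.41 (adjusted p = 0.00223). In HFS ad lib mice Fosl2 rose to 89.7 to 185.8 CPM (median 124.7) by 0.76 (adjusted p = 0.00164) and Junb to 134.9 to 240.7 CPM (median 194.8) by 0.57 (adjusted p = 0.00535). In HFS TRF mice Fos rose by 1.25 (adjusted p = 0.005), Fosb by 0.84 (adjusted p = 0.039), Fosl2 by 0.61 (adjusted p = 0.0155), Junb by 0.66 (adjusted p = 0.00134) and Atf3 by 1.19 (adjusted p = 0.000278). Home cage mice of the 2 times overlapped for every member in chow-fed mice, where 1.54% of genes stood higher and 4.3% lower without overlap, and under HFS ad lib (1.24% and 3.6%). Under HFS TRF, Fos, Junb and Atf3 stood higher without overlap, 3 members beside 3.1% of genes higher and 6.44% lower, and the levels of Atf3 were 6.46 to 9.30 CPM at HC zt15 (n = 5). Without HFS TRF HC zt15 replicate 4 or 5, Fosb and Fosl2 lost their calls, at 0.71 and 0.51 for Fosb and 0.52 and 0.42 for Fosl2, and Fosb also lost it without HFS TRF HC zt3 replicate 1, 2, 5 or 6. In chow-fed mice Fosl2 passed without HC zt3 or HC zt15 replicate 1 or 2, at 0.55 to 0.62. In HFS ad lib mice Fos passed without HC zt3 replicate 5 or 6 or HC zt15 replicate 2, at 1.01 to 1.16, and Jun without HC zt3 replicate 5 or HC zt15 replicate 2, at 0.33. With the astrocyte score as a covariate the members called numbered 2 in chow-fed mice, 1 under HFS ad lib, 3 under HFS TRF and 5 as the mean of the 3 diets, where 2.21%, 3.59%, 2.84% and 6.51% of all genes were higher in that fit. HFS ad lib HC zt15 replicate 2, without which Fos and Jun passed, was the mouse with the high microglia markers, and the part of those cells was not tested.

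No member passed the test between diets within any condition. In 96 tests of the 8 members over 12 comparisons edgeR called 0 and had 4 with an unadjusted p under 0.05. DESeq2 called 1 after adjustment and also had 4 with an unadjusted p under 0.05. Of edgeR's 4, 2 were in HFS TRF against chow-fed mice at HC zt15, where 3393 of the 30141 genes had such a p. At ORM+12 h 1 each was in HFS ad lib (6400 genes) and HFS TRF (7371 genes) against chow-fed mice. Across all genes the share at an adjusted p under 0.05 was 0% in both directions in 8 of the 12 comparisons, and 0.063% higher in HFS ad lib against chow-fed mice at HC zt15. At ORM+12 h it was 0.763% higher and 1.51% lower for HFS ad lib and 3.47% and 5.31% for HFS TRF against chow-fed mice, and 0.00664% lower for HFS TRF against HFS ad lib. The closest was Jund at ORM+12 h in HFS ad lib against chow-fed mice, with 196.9 to 235.1 CPM against 180.1 to 214.8 CPM, a log2 fold change of 0.19 (95% interval 0.06 to 0.32, adjusted p = 0.0893), which DESeq2 called at an adjusted p of 0.0352 and edgeR without HFS ad lib ORM+12 h replicate 4. In the same condition Jund of HFS TRF mice differed from chow-fed mice by 0.15 (adjusted p = 0.151). At HC zt15, Jun differed by -0.25 (adjusted p = 0.398) and Atf3 by 0.60 (adjusted p = 0.398) in HFS TRF against chow-fed mice. Leaving out Fosl1, the differences between diets lay between -0.47 and 0.60 on the log2 scale, with 95% intervals of ± 0.13 to ± 0.66.

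Whether diet altered the response itself was tested as an interaction. In 72 tests over 9 comparisons edgeR called 0 members, where from 0% to 0.0597% of genes were higher and from 0% to 0.0464% lower. At an unadjusted p under 0.05 edgeR had 4 and DESeq2 5, and DESeq2 called 0 after adjustment. In the comparisons that held edgeR's 4, from 2033 to 5643 of the 30141 genes had such a p. At ORM+1 h the change in HFS ad lib minus that in chow-fed mice was -0.38 for Fos (95% interval -1.27 to 0.51), 0.11 for Fosb (-0.67 to 0.88), 0.08 for Fosl2 (-0.42 to 0.57) and -0.12 for Junb (-0.54 to 0.29). For HFS TRF minus HFS ad lib it was 0.40 for Fos (-0.48 to 1.29), -0.10 for Fosb (-0.88 to 0.67), 0.12 for Junb (-0.29 to 0.54) and 0.38 for Atf3 (-0.28 to 1.05). These intervals allow differences of up to 1.29 for Fos, so a like response on the 3 diets is not shown. Atf3 accounted for 3 of the 4 unadjusted results, with -0.95 at ORM+12 h in HFS TRF minus chow-fed mice (95% interval -1.63 to -0.27, adjusted p = 0.192) and with 0.80 and 0.78 at HC zt15 in HFS TRF minus NC ad lib and minus HFS ad lib mice. The other one was Jund with 0.22 at ORM+12 h in HFS ad lib minus chow-fed mice (0.04 to 0.40, adjusted p = 0.168).

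**Figure D4:**
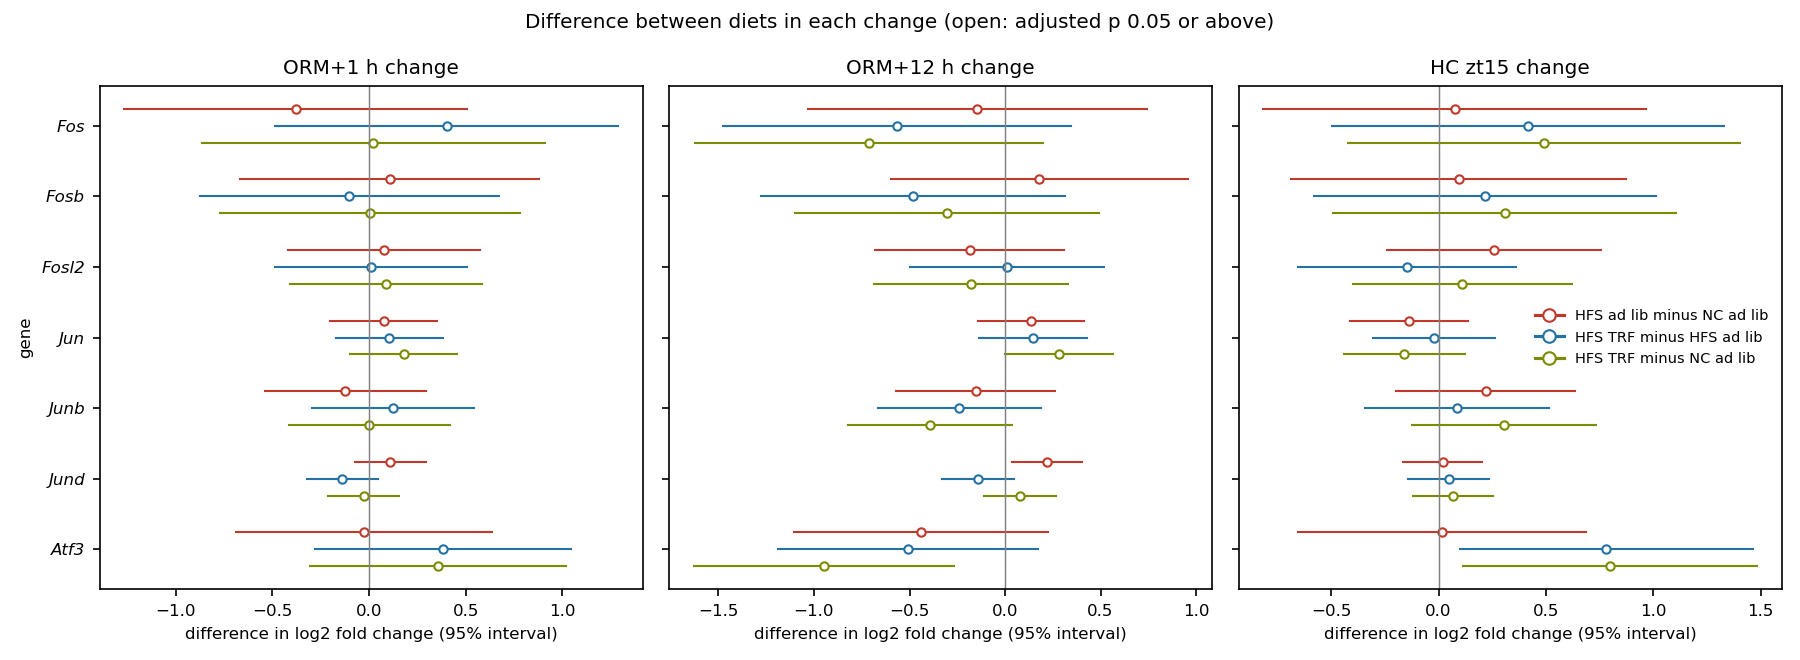
Difference between diets in the change of 7 of the 8 genes, without Fosl1, for the 3 pairs of diets (log2, with 95% intervals), at ORM+1 h, ORM+12 h and HC zt15. At ORM+1 h every interval shown includes 0, those of Atf3 (3 intervals) and Jund (1) in the other panels do not, and all points are open, for an adjusted p of 0.05 or above.

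From mouse to mouse within a group, Fosb varied most like Fosl2, and Fos most like Junb. Over the 71 mice, deviations of log2 CPM from the 12 group means correlated with r = 0.951 between Fosb and Fosl2 and r = 0.890 between Fos and Junb. Across these pairs the correlation was lower, with r = 0.697 for Fos and Fosb, 0.621 for Fosb and Junb and 0.585 for Fosl2 and Junb. Jun and Atf3 (r = 0.230) and Jund and Atf3 (r = 0.140) varied less together. Mice of a group share its condition, and each value rests on 1 library per mouse with its own depth and tissue make-up, so these are descriptions.

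**Figure D5:**
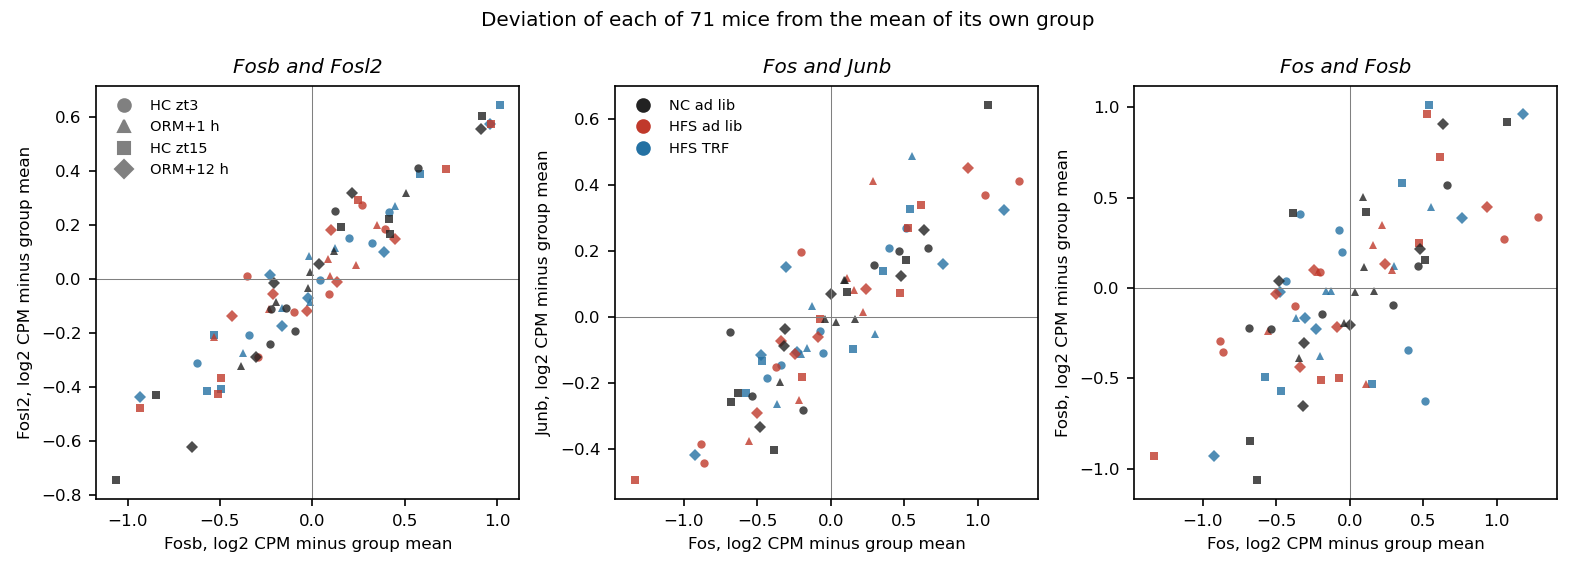
Deviation of log2 CPM from the group mean in each of 71 mice for 3 pairs of members, each point a mouse, coloured by diet and shaped by condition. Fosb with Fosl2 (r = 0.951) and Fos with Junb (r = 0.890) form narrower bands than Fos with Fosb (r = 0.697).

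For each member but Fosl1, the 3 genes most like it in level over the 71 mice were taken from 15607 compared. Fos was most like Nr4a1, an orphan nuclear receptor gene (r = 0.971), Egr2 (0.952) and Egr1 (0.943), which encode zinc finger transcription factors. Junb was most like the same 3 genes, at r = 0.968, 0.957 and 0.945. Fosb was most like Egr4 (0.963), Egr1 (0.951) and Nr4a2 (0.945), and Fosl2 was most like Nr4a2 (0.933), Nfil3, a bZIP repressor gene (0.930), and Midn (0.926). Atf3 was most like Errfi1, which encodes an inhibitor of the EGF receptor (0.928), Gadd45b (0.913) and Sertad1 (0.906).

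On deviations from the group means the order was in part another. Fos was closest to Nr4a1 (r = 0.900), Arc, a regulator of synaptic strength (0.840), and Ier2 (0.827), and Junb to Nr4a1 (0.893), Arc (0.841) and Egr2 (0.806). Fosb was closest to Nr4a2 (0.880), Nr4a3 (0.872) and Egr4 (0.863), and Fosl2 to Nr4a2 (0.900), Nr4a3 (0.875) and Midn (0.830). Atf3 was closest to Siah2 (0.676), Sertad1 (0.636) and Errfi1 (0.627). Jun had its nearest genes in Sox11 (0.788), Tspoap1 (0.758) and Cbfa2t3 (0.743) by level and Arl2bp (0.687), Tent4a (0.685) and Tspoap1 (0.679) by deviation. Jund had Pard6a (0.732), Smad7 (0.727) and Stk40 (0.710) by level and Tle5 (0.758), Mmp24os1 (0.730) and Stk11 (0.707) by deviation.

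Other genes of the pathway were read from 3 lists. Of 16 bZIP partners and relatives, 5 rose and none fell at ORM+1 h as the mean of the 3 diets, where 8.04% of all genes rose and 6.59% fell, with a median of 0.08. They were Maff (1.46 ± 0.22, SE, log2) and Mafk (0.28 ± 0.05), which encode small Maf proteins, Atf4, the stress response factor gene (0.37 ± 0.04), Jdp2, which encodes a Jun dimerization partner (0.26 ± 0.04), and Nfe2l2, the gene of the antioxidant factor NRF2 (0.70 ± 0.17). On single diets 5 rose in chow-fed mice (4.03% of all genes), 2 under HFS ad lib (0.74%) and 3 under HFS TRF (2.24%).

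Of 22 upstream kinases and transcription factors, 5 rose and 7 fell at ORM+1 h, beside the same 8.04% and 6.59% of all genes, with a median of -0.05. Crem, whose short form represses cAMP response elements, rose by 0.64 ± 0.08 and Elk4, a ternary complex factor gene, by 0.45 ± 0.07. Srf, the gene of serum response factor, rose by 0.25 ± 0.05, and Mapk3, which encodes the kinase ERK1, fell by 0.22 on the log2 scale. Of 15 genes known as AP-1 targets, Timp1, an inhibitor of metalloproteinases, rose by 1.43 ± 0.40, Camk2a fell by 0.29 on the log2 scale and the other 13 did not pass the test, with a list median of -0.07 and 1 of 15 called in each direction, near the share of all genes. Camk2a is also one of the excitatory neuron markers. At ORM+12 h, as the mean of the 3 diets, 0 partners, 4 upstream genes and 2 targets rose and none fell, beside 3.58% and 2.44% of all genes, and Mapk3 rose by 0.12 and Camk2a by 0.21. At HC zt15 against HC zt3, 7 partners, 9 upstream genes and 2 targets rose, and 0, 3 and 3 fell, where 12.7% of all genes rose and 16.9% fell. The targets were near that background.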

How the data were processed

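Hippocampal pS6-TRAP RNA was sequenced as 50-base read pairs in the study. The authors trimmed reads with Trim Galore 0.6.7 and cutadapt 3.4, aligned them to GRCm39 with HISAT2 2.2.0 and counted them per gene with featureCounts (Subread 2.0.3), and the deposited values are raw counts for 71 mice, without normalization. Groups came from the sample labels, and no sample column was left unmapped. Counts were normalized by TMM and fitted with edgeR 4.0.16 (R 4.3.3) in 1 model of 12 groups over 30141 genes, each with a sum of at least 10 counts. Quasi-likelihood tests were adjusted by Benjamini-Hochberg within each comparison at 0.05. DESeq2 1.42.0 was an alternative here, whereas in the study DESeq2 was the test of gene expression. The study describes its model as holding more samples than the 71 used here. Intervals are 95%. The members and lists were chosen with earlier results of these data known. Named were all 8 members, up to 4 genes of each of 3 pathway lists with the smallest adjusted p among those called at ORM+1 h as the mean of the 3 diets, and the 3 genes most correlated with each of 7 members. Nfe2l2, beyond that rule, was named after its values were seen to complete its list. Other settings comprised size factors, filters, a replicate block, marker covariates and leaving out each mouse in turn. Fits were tested on simulated data of 29541 genes. No 2 mice of a group agreed within sampling noise, and pairs across groups were not compared. The study housed its mice in groups in shared cages, and the sources used here do not give the cage of each mouse. A shared cage was therefore not modelled. The sources also do not say whether samples of a group differ in more than the animal. The p-values measure the spread between these mice, taken as independent.

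Counts from 1 to 4 were even in 79.1% of 213342 values and counts from 1000 to 9999 in 58.6%, and all 68 nonzero counts of Fosl1 were even. The setting for read pairs in the counting is not given in the sources used here, and the cause of the even counts was not tested.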

Additional observations from a re-analysis of the deposited data

Results flagged for a closer look

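In 2 of 96 groups tested 1 mouse stood apart from the others, where chance gives about 1 in 20. Fosb was 34.8 CPM in NC ad lib HC zt3 replicate 2, against 25.4 CPM in the next mouse. Junb was 506.6 CPM in HFS TRF ORM+1 h replicate 4, against 369.6 CPM in the next.

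The change at ORM+12 h minus the change at ORM+1 h passed edgeR's test in 16 cases, all lower. For NC ad lib, then HFS ad lib, then HFS TRF mice, the log2 difference was -2.68, -2.45 and -3.42 for Fos, -2.63, -2.56 and -2.94 for Fosb, -1.30, -1.57 and -1.57 for Fosl2, -1.52, -1.56 and -1.92 for Junb and -1.55, -1.97 and -2.86 for Atf3. Jund passed in NC ad lib mice at -0.28 (adjusted p = 0.0485), and that call was lost when any 1 of 17 of the 24 mice was left out.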

How the results depend on the processing

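The counts of members called at ORM+1 h stayed within 1.5 times their value under 9 other models. At HC zt15 against HC zt3 in NC ad lib mice the count was 2 instead of 1 with a filter of at least 1 count, with the replicate block within task, with the choroid plexus or astrocyte covariate and with DESeq2. The astrocyte covariate, chosen after seeing the data, gave 1 instead of 2 in HFS ad lib, 3 instead of 5 in HFS TRF mice and 5 instead of 8 as the mean. For HFS ad lib against NC ad lib at ORM+12 h the count was 1 instead of 0 with the replicate block within task and with DESeq2. Leaving out each mouse gave 5 to 6 (NC ad lib), 6 to 8 (HFS ad lib), 6 (HFS TRF) and 8 (mean) at ORM+1 h, 1 to 2, 2 to 4, 3 to 5 and 7 to 8 at HC zt15, 0 to 1 for HFS ad lib against NC ad lib at ORM+12 h and 5 to 6 for the difference of changes in NC ad lib mice. Jund in NC ad lib mice at ORM+1 h, at an adjusted p of 0.0413, had 0.0699 with DESeq2 size factors, 0.0520 with at least 1 count, 0.0705 with filterByExpr, 0.0709 with only the groups compared and 0.167 with the astrocyte covariate. Jun in HFS ad lib mice had 0.0671 with that covariate, and Jun in NC ad lib mice 0.0138 with the choroid plexus covariate and 0.0345 with DESeq2. Of 2592 values under other models 63 had the other sign, none past the test, and none of the calls reversed. In every pair of groups compared, some mice of the same replicate number had a negative correlation of deviations (from -0.346 to 0.395 over all). Mice were therefore not treated as paired, and pairing of only some mice was not excluded. The replicate block left 36 of 36 counts of calls within 1.5 times. The causes of these shifts were not tested. Depth limits Fosl1 most, with at most 70 counts in a mouse.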
